A study of Mus musculus with 18 samples.

Results

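Insr, Irs2 and Igf2bp2, 3 genes that act around the insulin signal, were followed in MC3T3-E1 cells, a mouse preosteoblast line, during osteogenic differentiation. They were taken as the rows of the deposited count table with these symbols, which gave 3 of its 40620 rows. Their identifiers are ENSMUSG00000005534 (Insr), ENSMUSG00000038894 (Irs2) and ENSMUSG00000033581 (Igf2bp2). The first 2 lie on chromosome 8 and the last on chromosome 16, all on the minus strand. The cells stably expressed 1 of 3 lentiviral short hairpin constructs. The constructs shRcor2-18 and shRcor2-20 target Rcor2, a corepressor of the CoREST family, and carry the genotype label RCOR2 knockdown. The control construct, shScramble, carries the label WT. Cells of each construct were harvested at 3 times, which the sample titles give as 0h, 24h and 7d. Each group had 2 samples, which made 18 libraries in all. Differentiation medium held dexamethasone, ascorbic acid and beta-glycerophosphate. The protocol in the labels lists later harvest days and does not name day 7. All groups come from 1 cell line. The labels do not state whether the 2 samples of a group are separate cultures, and p-values therefore measure only how far these samples differ, possibly for technical reasons.

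Sample 1 of each construct at 0h was left out under the rule by which the 3 genes were chosen. Thus 15 libraries were used, and each construct had 1 library at 0h. Library totals ran from 2572026 to 9798498 counts over all 18 libraries, both extremes among the 3 left out. In much of the table the row names are out of register with the reads: Gapdh, a glycolytic enzyme of every cell, had a mean of 0.11 CPM (CPM being counts scaled to library size), and Col1a2, which encodes a type I collagen chain, had 0.58 CPM. Stretches from the starts of 7 chromosomes were in register in a search along the gene order, and the 3 genes lie in 2 of them. The row of Rcor2 lies outside, held 201 to 297 CPM in every library, and differed by 0.10 ± 0.06 (SE) on the log2 scale between the hairpins and shScramble (edgeR adjusted p = 0.832), so that it does not check the construct labels. Osteoblast and macrophage markers lie outside as well, so the labelled cell type could not be checked with them.

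The stretch of chromosome 8 runs from Insr, its first protein-coding gene, to Erich1 and holds 92 protein-coding rows, of which 46 of the 81 scored reached 20 CPM. Within it, all 9 genes of a list of commonly expressed genes, which the search itself used, lay between 203 and 4120 CPM. Those near the members included Elavl1, an RNA-binding protein (439 CPM), Col4a1 and Col4a2, the basement membrane collagens (2910 and 2150 CPM), and Lamp1, a lysosomal membrane protein (4000 CPM). Timm44, a mitochondrial import protein of a family that the search did not score, had 220 CPM. Retn, a hormone that adipocytes make in mice, had 0.098 CPM. The stretch of chromosome 16 holds 611 of its 646 protein-coding rows, and 33 of its 34 common genes reached 20 CPM. There Eif4g1, a translation initiation factor, had 2720 CPM, Psmd2, a proteasome subunit, 960 CPM, and Adipoq, the adipocyte hormone adiponectin, 0.20 CPM. Because the search used the list of common genes to find both stretches, their levels are no separate check of the names. Only 1 member of the families held out for the check, Timm44, lies on the stretch of chromosome 8, and it reached 20 CPM. On the stretch of chromosome 16, 13 of 14 did, Psmd2 among them, so the names Insr and Irs2 are the less well checked.

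**Figure D1:**
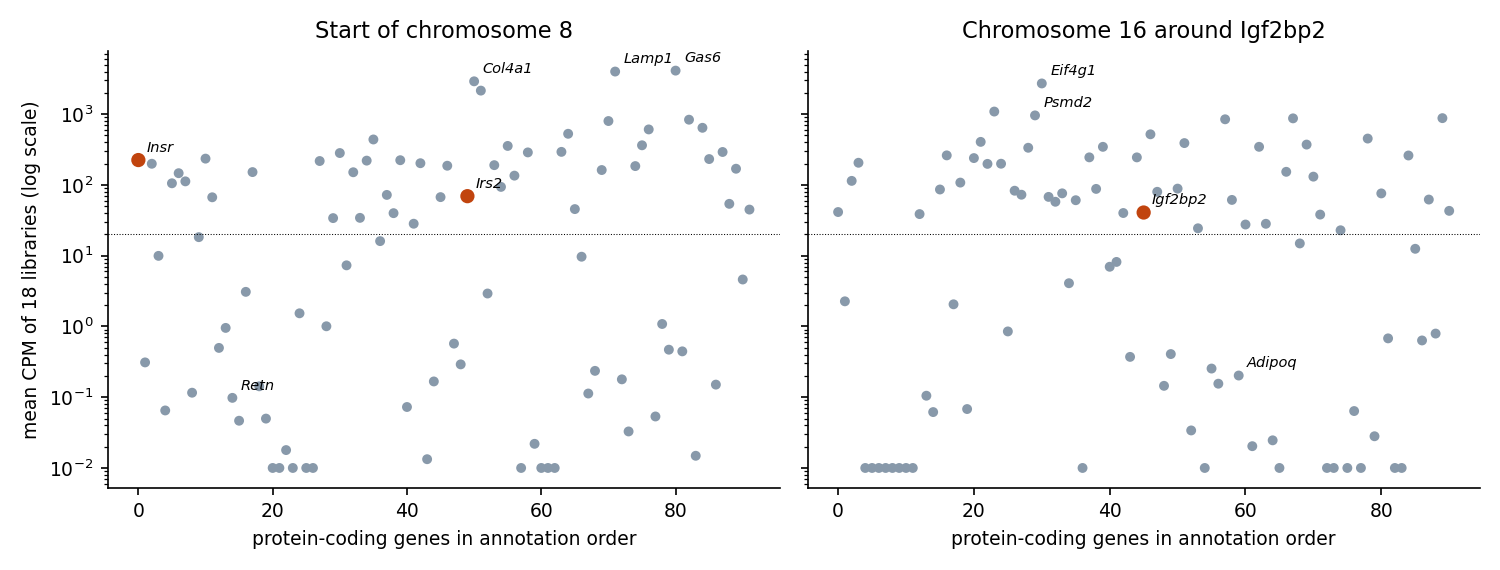
Mean CPM of the library total over 18 libraries (log axis, values under 0.01 drawn at 0.01) of protein-coding genes in annotation order, for the first 92 of chromosome 8 and for 91 around Igf2bp2 on chromosome 16; each point is 1 gene, and the members are in red. The dotted line marks 20 CPM, which 47 and 49 of the genes drawn reached, the 3 members among them.

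Insulin binds the insulin receptor, a tyrosine kinase encoded by Insr, which phosphorylates insulin receptor substrates such as the product of Irs2. The substrates in turn recruit PI3 kinase and feed the AKT pathway, which holds FOXO transcription factors out of the nucleus. FOXO factors are known activators of Insr and Irs2, and osteoblasts respond to insulin through the same receptor. Igf2bp2 encodes a cytoplasmic protein that binds the mRNA of the growth factor IGF2 and many other mRNAs, and variants at the human gene are associated with type 2 diabetes.

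Of the 3 genes, 2 had an entry in the RefSeq promoter table (GRCm38.p6), which covers 250 bases before to 50 bases after a gene's start. Both windows are shown because they hold the letters that regulators of these genes could read, and both are rich in G and C, with 72.0% for Irs2 and 76.7% for Igf2bp2 against a median of 52.7% over 32851 windows. They are chr8:11008880-11009179 for Irs2 and chr16:22163250-22163549 for Igf2bp2, both written 5′ to 3′ on the minus strand, with the motifs found on either strand in capitals.
Irs2: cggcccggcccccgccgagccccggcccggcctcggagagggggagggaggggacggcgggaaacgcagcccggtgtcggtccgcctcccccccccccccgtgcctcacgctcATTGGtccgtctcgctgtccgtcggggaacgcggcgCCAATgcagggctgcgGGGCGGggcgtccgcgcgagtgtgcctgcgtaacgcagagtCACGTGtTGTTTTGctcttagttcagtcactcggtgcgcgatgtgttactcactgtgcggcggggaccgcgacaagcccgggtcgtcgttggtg
Igf2bp2: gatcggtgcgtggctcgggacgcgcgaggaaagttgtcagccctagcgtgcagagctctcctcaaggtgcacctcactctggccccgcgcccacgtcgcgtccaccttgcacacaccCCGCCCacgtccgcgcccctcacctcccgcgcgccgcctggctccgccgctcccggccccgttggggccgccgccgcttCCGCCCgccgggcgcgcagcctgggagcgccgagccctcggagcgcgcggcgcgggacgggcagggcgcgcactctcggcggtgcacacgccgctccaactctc
The Irs2 window holds TGTTTTG, an insulin response element known as a FOXO site, 37 bases before the start, which 6.28% of all windows hold on either strand. The E-box CACGTG lies 44 bases before the start and is held by 7.15% of windows. The GC box GGGCGG lies 85 bases before it (35.7% of windows), and CCAAT occurs 2 times, 101 bases before the start and, on the other strand, 137 bases before it (37.4%). The Igf2bp2 window holds GGGCGG 2 times, on the other strand, 133 and 54 bases before the start. Neither window holds the second form of the insulin response element TATTTTG (4.36% of windows), the FOXO consensus GTAAACA (3.65%), the glucocorticoid receptor half-site AGAACA (19%), the cyclic AMP response element TGACGTCA (1.79%) or the AP-1 site TGANTCA (7.81%). These are matches of letters only, and no binding was measured here.

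Per length of transcript, Irs2 had the highest mean of the 3 genes at 0h and Insr the highest at 24h and 7d. Divided by the summed length of the exons, Irs2 had 20.6 ± 6.89 CPM per kilobase at 0h (SD, n = 3), Insr 12.9 ± 1.30 and Igf2bp2 3.59 ± 1.93, and the libraries of Irs2 and Insr overlapped. At 24h the levels were 12.9 ± 1.29 CPM per kilobase for Insr, 6.70 ± 2.21 for Irs2 and 4.66 ± 2.13 for Igf2bp2 (n = 6), and at 7d 17.4 ± 1.64, 6.43 ± 2.56 and 4.06 ± 1.68. At both of these times Insr lay above the other two in every library, while Irs2 and Igf2bp2 overlapped. Without that division the means over the 15 libraries were 202 CPM for Insr, 59.3 CPM for Irs2 and 31.1 CPM for Igf2bp2 after TMM scaling, the scale of every level below. Of the 12930 rows tested, 92.6% had a lower mean than Insr, 78.4% a lower one than Irs2 and 68.6% a lower one than Igf2bp2. Counts behind a level were 665 to 1145 for Insr, 106 to 670 for Irs2 and 57 to 283 for Igf2bp2, which gives a counting error of 2.96% to 3.88%, 3.86% to 9.71% and 5.94% to 13.2% of the level. The spread between libraries of a group was larger, with a biological coefficient of variation in edgeR of 15.7% for Insr, 39.4% for Irs2 and 51.0% for Igf2bp2, against a median of 18.3% over in-register genes.

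Among the 15 libraries used, Insr, the receptor, had its highest levels at 7d. At 0h it had 176 CPM with shRcor2-18, 197 CPM with shRcor2-20 and 161 CPM with shScramble. At 24h the 2 samples had 198 and 168 CPM with shRcor2-18, 189 and 148 CPM with shRcor2-20, and 183 and 178 CPM with shScramble. At 7d they had 235 and 236 CPM with shRcor2-18, 246 and 201 CPM with shRcor2-20, and 251 and 268 CPM with shScramble. All 6 libraries at 7d lay above all 6 at 24h and the 3 used at 0h, while the libraries of 24h and 0h overlapped. Such a separation upward was seen in 2.59% of all rows tested for 7d against 24h and in 7.14% for 7d against 0h. The 3 libraries of 0h left out stood higher still in Insr, at 300 to 374 CPM of the library total, against 195 to 262 CPM at 7d on that scale.

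The means of Insr were 178 ± 17.9 CPM at 0h (SD, n = 3), 177 ± 17.7 CPM at 24h (n = 6) and 240 ± 22.5 CPM at 7d (n = 6). At 7d against 24h the log2 difference was 0.43 ± 0.09 (SE; 95% interval 0.22 to 0.64), a 1.35-fold difference that missed the threshold of 0.05 (edgeR adjusted p = 0.0535, unadjusted p = 0.00133). At 7d against 0h it was also 0.43 ± 0.11 (0.17 to 0.69; edgeR adjusted p = 0.0663). At 24h against 0h it was -0.00009 ± 0.11 (-0.26 to 0.26; edgeR adjusted p = 1.00). The difference at 7d against 24h passed with DESeq2 (adjusted p = 0.000568), and with only the in-register rows tested (edgeR adjusted p = 0.0125). There fewer rows enter the adjustment, and scaling and spread were fitted anew (edgeR unadjusted p = 0.000661). Over the 9 other settings the adjusted p of the difference at 7d against 24h ran from 0.000568 to 0.723. With the left-out libraries of 0h included, 7d against 0h was -0.14.

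In each construct Insr stood higher at 7d than at 24h, by 0.36 ± 0.16 with shRcor2-18, 0.41 ± 0.16 with shRcor2-20 and 0.52 ± 0.16 with shScramble on the log2 scale, none past the threshold alone (edgeR adjusted p = 0.612, 0.514 and 0.434), where 0.0387%, 0.0155% and 0.0773% of all rows were called. Libraries of the same construct and sample number gave ratios of 7d to 24h between 1.19 and 1.5, so all 6 pairs went the same way.

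Irs2, the receptor substrate, had its highest levels at 0h. It had 133 CPM with shRcor2-18, 173 CPM with shRcor2-20 and 85.7 CPM with shScramble at 0h. At 24h the samples had 26.2 and 59.7 CPM with shRcor2-18, 42.7 and 51.2 CPM with shRcor2-20, and 25.3 and 49.3 CPM with shScramble. At 7d they had 28.4 and 65.4 CPM with shRcor2-18, 31.2 and 56.9 CPM with shRcor2-20, and 28.9 and 33.1 CPM with shScramble. Every library at 24h and at 7d lay below the lowest of 0h, and the libraries of 24h and 7d overlapped. A separation downward was seen in 3.68% of all rows for 24h against 0h and in 7.78% for 7d against 0h.

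Irs2 fell to 40.7 ± 16.2 CPM at 7d (SD, n = 6), against 130 ± 43.6 CPM at 0h (n = 3), a 3.13-fold lower level. The log2 difference was -1.64 ± 0.36 (SE; 95% interval -2.48 to -0.81; edgeR adjusted p = 0.0383). In bulk RNA, fewer cells that express a gene and less of its RNA per cell cannot be told apart. At 24h the mean was 42.4 ± 14.0 CPM (n = 6), and 24h against 0h gave -1.57 ± 0.36 (-2.40 to -0.73), a difference of similar size that did not pass (edgeR adjusted p = 0.0934, unadjusted p = 0.00242). It passed with DESeq2 (adjusted p = 0.00356) and with only in-register rows tested (edgeR adjusted p = 0.0216), and its adjusted p ran from 0.00356 to 0.158 over the 9 other settings. Between 7d and 24h the difference was -0.08 ± 0.31 (-0.79 to 0.64; edgeR adjusted p = 0.979). The libraries used at 0h were all sample 2, and Irs2 stood higher in sample 2 than in sample 1 of every construct at 24h and 7d. Time and sample number are thus partly confounded in the comparisons with 0h. With a replicate block for the sample number of each construct, Irs2 was -1.31 at 7d and -1.24 at 24h against 0h, both smaller in size.

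The call of Irs2 at 7d against 0h was lost in 10 of the 15 fits that left out 1 library and kept in 5. The value was -1.73 (edgeR adjusted p = 0.0987), -1.72 (adjusted p = 0.0933) and -1.48 (adjusted p = 0.135) without the 0h library of shScramble, shRcor2-18 and shRcor2-20. Without sample 1 or 2 of shRcor2-20 at 24h it was -1.64 in both (edgeR adjusted p = 0.0654 and 0.0656). At 7d it was -1.61 (edgeR adjusted p = 0.0881) and -1.68 (adjusted p = 0.0754) without sample 1 and 2 of shScramble, -1.48 (adjusted p = 0.0702) without sample 1 of shRcor2-18, and -1.52 (adjusted p = 0.0790) and -1.81 (adjusted p = 0.0509) without sample 1 and 2 of shRcor2-20.

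Each construct showed the lower level of Irs2 after 0h. On the log2 scale, 7d against 0h was -1.50 ± 0.63 with shRcor2-18, -1.97 ± 0.63 with shRcor2-20 and -1.47 ± 0.64 with shScramble, and 24h against 0h was -1.63 ± 0.63, -1.88 ± 0.63 and -1.20 ± 0.64 in the same order. None of these passed alone, with edgeR adjusted p between 0.348 and 0.761, where 0.433%, 0.588% and 0.959% of all rows were called at 7d and 0.302%, 0.348% and 0.371% at 24h. The hairpin difference of Irs2 at 7d less that at 0h was -0.27 ± 0.81 (95% interval -2.12 to 1.59; edgeR adjusted p = 1.00; 0.139% of rows called). From 24h to 7d, 4 of the 6 same-numbered pairs had a ratio of 1.08 to 1.14, while sample 1 of shRcor2-20 had 0.73 and sample 2 of shScramble 0.67.

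Igf2bp2, the mRNA-binding protein, did not change detectably with time and varied most within a time. At 0h it had 17.9 CPM with shRcor2-18, 18.8 CPM with shRcor2-20 and 43.1 CPM with shScramble. At 24h the samples had 50.6 and 17.7 CPM with shRcor2-18, 44.5 and 12.7 CPM with shRcor2-20, and 45.3 and 36.4 CPM with shScramble. At 7d they had 49.1 and 16.9 CPM with shRcor2-18, 27.0 and 19.7 CPM with shRcor2-20, and 40.5 and 26.9 CPM with shScramble. The libraries of the 3 times overlapped, and sample 2 of both hairpins was low at every time, at 12.7 to 19.7 CPM.

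The means of Igf2bp2 were 26.6 ± 14.3 CPM at 0h (SD, n = 3), 34.5 ± 15.7 CPM at 24h (n = 6) and 30.0 ± 12.4 CPM at 7d (n = 6). The log2 differences were 0.48 ± 0.52 for 24h against 0h (SE; 95% interval -0.71 to 1.68; edgeR adjusted p = 0.837), 0.28 ± 0.52 for 7d against 0h (-0.91 to 1.47; adjusted p = 0.853) and -0.20 ± 0.42 for 7d against 24h (-1.16 to 0.75; adjusted p = 0.895). The first 2 were below 0 with the left-out libraries of 0h included and with a block for the sample number. Igf2bp2 stood lower in sample 2 than in sample 1 of every construct at 24h and 7d, and the libraries used at 0h were all sample 2. Its comparisons with 0h are thus partly confounded with sample number, as for Irs2.

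**Figure D2:**
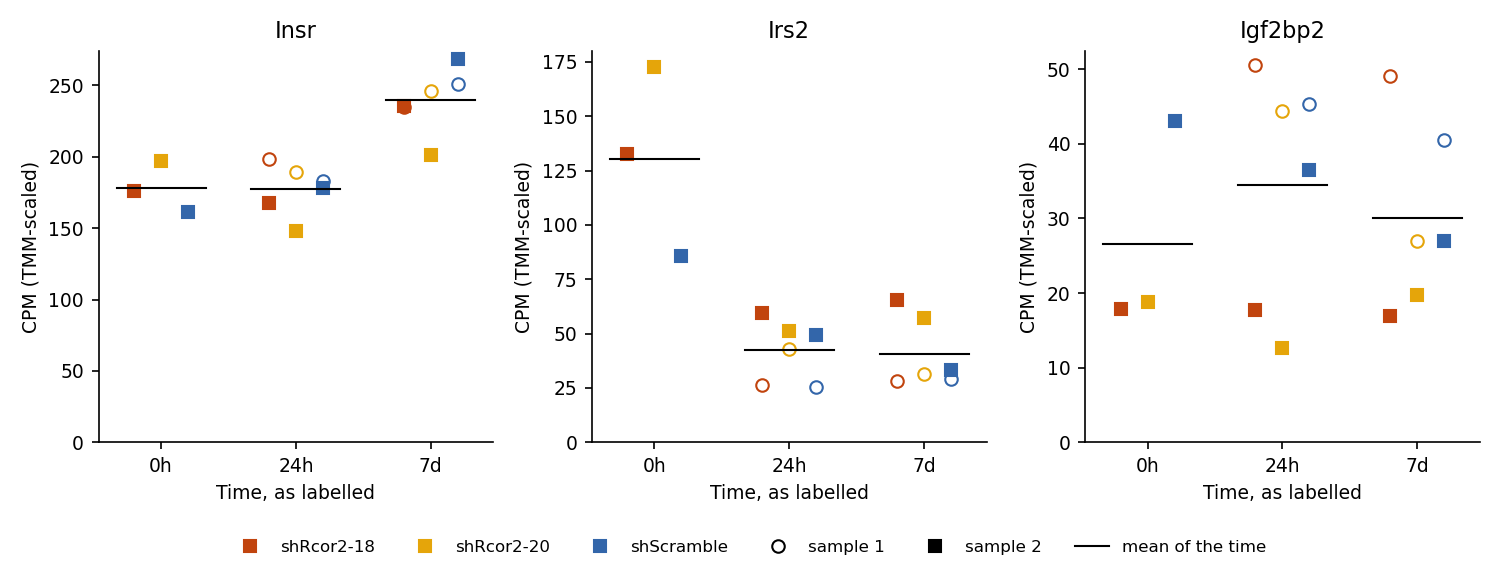
Levels of the 3 genes (TMM-scaled CPM, axes from 0) in each of the 15 libraries by time; colour gives the construct, open circles are sample 1, filled squares sample 2, and the line is the mean of the time. Insr lies between 201 and 268 CPM at 7d, Irs2 between 85.7 and 173 CPM at 0h, each apart from the other times, and Igf2bp2 overlaps throughout.

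Over the 3 genes, edgeR called 0 of 3 at 24h against 0h (1 at an unadjusted p under 0.05 and 1 with DESeq2, Irs2 in both cases), where 1.86% of all rows tested were called. It called 1 of 3, Irs2, at 7d against 0h (2 at an unadjusted p under 0.05 and 2 with DESeq2, Insr and Irs2 in both cases), where 5.76% were called in either direction and 2.49% lower. At 7d against 24h it called 0 of 3 (1 at an unadjusted p under 0.05 and 1 with DESeq2, Insr in both cases), where 2.34% were called. Of the 623 in-register rows tested, 17, 75 and 30 were called in the same order. With a replicate block for the sample number of each construct, 56, 432 and 169 rows were called in the 3 comparisons, against 240, 745 and 302 without it. Irs2 at 7d against 0h was called with the block too, at -1.31 ± 0.19 (edgeR adjusted p = 0.0368), and its adjusted p ran from 0.000982 to 0.0654 over the 9 other settings. The comparisons with 0h share its 3 libraries, and those with 24h or 7d share theirs.

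The series was made to compare the hairpins against Rcor2 with the scrambled control, and none of the 3 genes differed detectably in that comparison. At 0h Irs2 had 133 and 173 CPM with the hairpins and 85.7 CPM with shScramble, Insr 176 and 197 CPM and 161 CPM, and Igf2bp2 17.9 and 18.8 CPM and 43.1 CPM. All 3 genes separated the 2 hairpin libraries from the 1 control library there, as 36.5% of all rows did with the hairpins higher and 35.8% with them lower. The log2 differences at 0h were 0.21 ± 0.19 for Insr (SE; 95% interval -0.24 to 0.65), 0.82 ± 0.68 for Irs2 (-0.73 to 2.37) and -1.23 ± 0.86 for Igf2bp2 (-3.19 to 0.73), with edgeR adjusted p of 0.854, 0.825 and 0.775. With the left-out libraries of 0h included they were 0.096 ± 0.36, 0.83 ± 0.45 and -0.20 ± 0.82 in the same order, so the size for Igf2bp2 rests on which libraries of 0h are used.

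At 24h the hairpins averaged 176 ± 22.5 CPM of Insr (SD, n = 4) and shScramble 181 ± 3.35 CPM (n = 2), and the log2 difference was -0.04 ± 0.14 (SE). Irs2 averaged 44.9 ± 14.3 CPM with the hairpins and 37.3 ± 17 CPM with shScramble (0.27 ± 0.47), and Igf2bp2 31.3 ± 19 CPM and 40.9 ± 6.25 CPM (-0.39 ± 0.61). The libraries of hairpins and control overlapped for all 3 genes at 24h.

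At 7d Insr averaged 230 ± 19.8 CPM with the hairpins (SD, n = 4) and 260 ± 12 CPM with shScramble (n = 2), a log2 difference of -0.18 ± 0.14 (SE), and all 4 hairpin libraries lay below both controls, as in 4.29% of all rows. Irs2 averaged 45.5 ± 18.5 CPM with the hairpins and 31.0 ± 2.93 CPM with shScramble (0.55 ± 0.48), and Igf2bp2 28.2 ± 14.6 CPM and 33.7 ± 9.59 CPM (-0.28 ± 0.62), both with overlap. At 24h and at 7d the edgeR adjusted p of each gene was 1.00.

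Averaged over the times, the hairpins differed from shScramble by -0.005 ± 0.091 for Insr (95% interval -0.21 to 0.20; edgeR adjusted p = 1.00), 0.55 ± 0.32 for Irs2 (-0.18 to 1.28; adjusted p = 0.822) and -0.63 ± 0.41 for Igf2bp2 (-1.57 to 0.30; adjusted p = 0.832) on the log2 scale. The interval for Insr leaves out an average difference beyond 0.21 in size, while that for Irs2 reaches past a doubling and that for Igf2bp2 past a halving. The average of Insr joins 0.21 at 0h and -0.18 at 7d. Its hairpin difference at 7d less that at 0h was -0.39 ± 0.24 (95% interval -0.93 to 0.16), so the average does not bound the difference at a single time. In each of these 4 comparisons edgeR and DESeq2 called 0 of the 3 genes, and none had an unadjusted p under 0.05 in edgeR without a block. With a block for the sample number shared by the constructs, Igf2bp2 at 0h did, at -1.23 ± 0.49, and was not called. Of all rows tested, 0.155% were called in the comparison at 0h, 0.0155% in that at 24h, 0.0387% in that at 7d and 0.00773% in the average.

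Taken singly, shRcor2-18 and shRcor2-20 gave Irs2 0.48 ± 0.36 and 0.62 ± 0.36 above shScramble over all times (edgeR adjusted p = 0.932 and 0.892), and Igf2bp2 -0.52 ± 0.48 and -0.75 ± 0.48 (adjusted p = 0.948 and 0.901). Of all rows, 0.101% and 0.0387% were called. Against each other the hairpins differed by 0.01 ± 0.11 for Insr (95% interval -0.23 to 0.25), -0.14 ± 0.36 for Irs2 (-0.96 to 0.68) and 0.23 ± 0.48 for Igf2bp2 (-0.88 to 1.34), shRcor2-18 minus shRcor2-20, where 0.0928% of rows were called. The hairpin difference did not change detectably from 24h to 7d, with -0.14 ± 0.19 for Insr, 0.28 ± 0.66 for Irs2 and 0.11 ± 0.88 for Igf2bp2 (edgeR adjusted p = 1.00 each; 0.0541% of rows called).

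**Figure D3:**
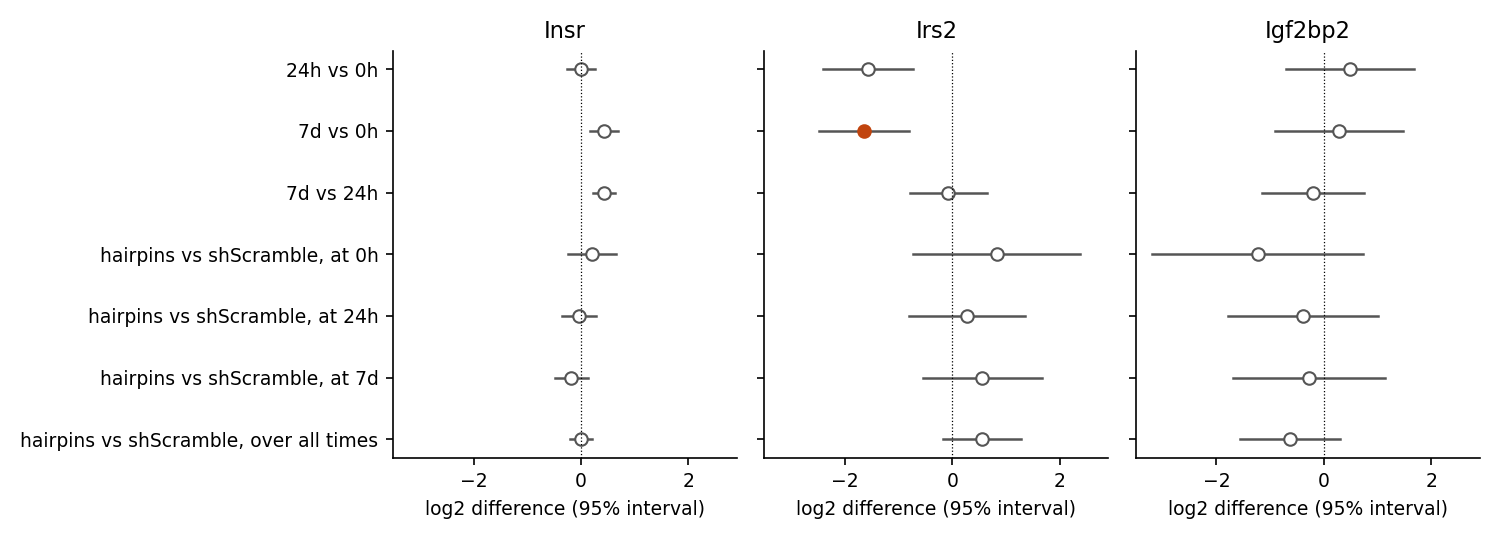
Log2 differences of the 3 genes (points) with 95% intervals (lines) in edgeR for the 3 comparisons of times and the 4 of hairpins with shScramble; each difference is the first group minus the second, and 0 is dotted. The filled point, Irs2 at 7d against 0h (-1.64), is the one past the threshold, and the intervals of Igf2bp2 all cross 0.

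For each library at 24h and 7d, a library of another construct was nearer than the other sample of its own. Over 525 in-register rows without the 3 genes and by chi-square between counts, the same pairs were nearest at both times. Sample 1 of shRcor2-18 paired with sample 1 of shScramble (pair A), sample 1 of shRcor2-20 with sample 2 of shScramble (pair B), and sample 2 of shRcor2-18 with sample 2 of shRcor2-20 (pair C). Within the pairs, chi-square divided by its degrees of freedom lay at 3.48 to 9.49 at 24h and 7.02 to 8.36 at 7d. The 2 samples of a construct stood at 22.1 to 40.9 and 27.6 to 37.6 from each other. At 0h, shRcor2-18 and shRcor2-20 stood at 4.3 from each other, and the nearest library to shScramble stood at 35.

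Levels of Igf2bp2 and Irs2 lay close within these pairs. The ratio of the higher to the lower library of Igf2bp2 was 1.00 to 1.39 within the 6 pairs, while it was 1.24 to 3.50 for samples sharing a construct. For Irs2 it was 1.02 to 1.17 within the pairs and 1.14 to 2.31 within a construct, and for Insr 1.06 to 1.17 and 1.00 to 1.28. Pair A had 50.6 and 45.3 CPM of Igf2bp2 at 24h and 49.1 and 40.5 CPM at 7d, while pair C had 17.7 and 12.7 CPM and 16.9 and 19.7 CPM. Irs2 had the opposite order, with 26.2 and 25.3 CPM in pair A at 24h and 28.4 and 28.9 CPM at 7d, against 59.7 and 51.2 CPM and 65.4 and 56.9 CPM in pair C.

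Pair B lay between them for Igf2bp2, with 44.5 and 36.4 CPM at 24h and 27.0 and 26.9 CPM at 7d, and both of its libraries had less Irs2 at 7d (31.2 and 33.1 CPM) than at 24h (42.7 and 49.3 CPM). Pairs A and B each set a hairpin library beside a control library, and pair C holds hairpin libraries only. The part of these pairs in the hairpin differences above was not tested. Where the libraries of a pair are not independent, the n of the comparisons of times is overstated. Across the 15 libraries, log2 CPM of Irs2 and Igf2bp2 correlated at -0.58, Insr and Irs2 at -0.42 and Insr and Igf2bp2 at 0.22, as a description of libraries that share times, constructs and these pairs.

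**Figure D4:**
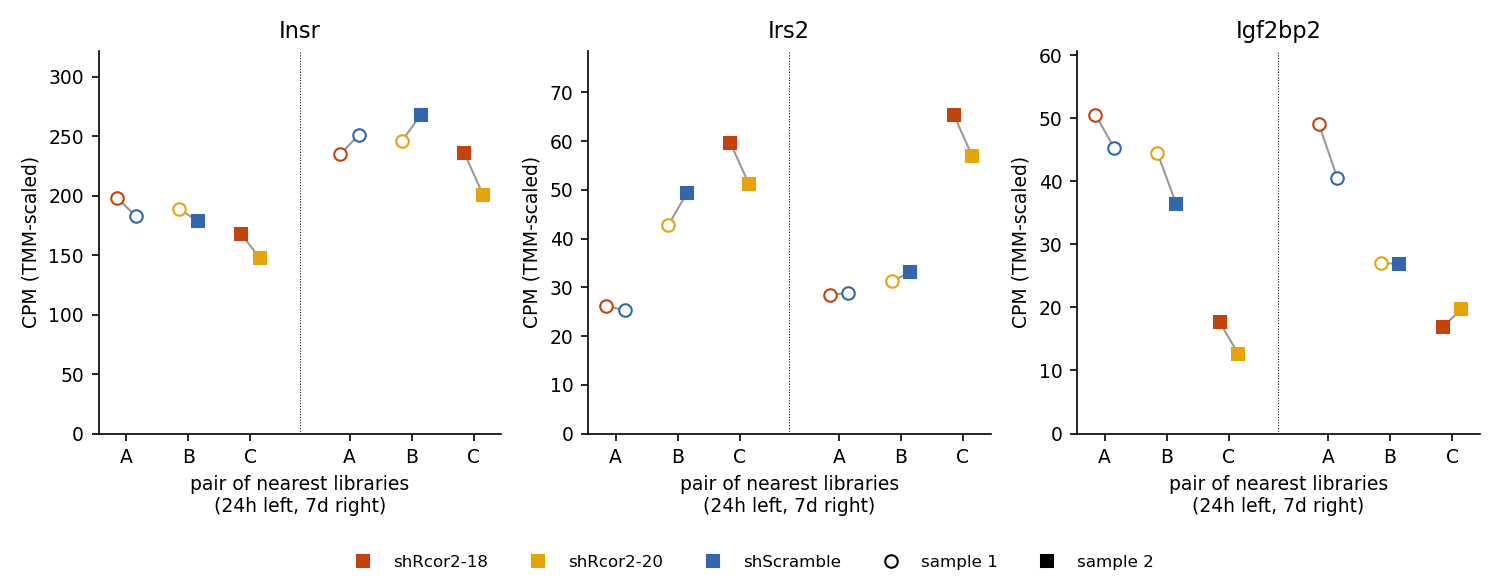
Levels of the 3 genes (TMM-scaled CPM, axes from 0) in the pairs of nearest libraries A, B and C, at 24h left and 7d right of the dotted line; colour gives the construct, open circles sample 1, filled squares sample 2, and a grey line joins a pair. Igf2bp2 is high in pair A (40.5 to 50.6 CPM) and low in pair C (12.7 to 19.7 CPM), and Irs2 is low in A (25.3 to 28.9 CPM) and high in C (51.2 to 65.4 CPM).

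Of the 10 genes tested within 3 places of the members on the chromosome, 2 passed the threshold in a comparison of times, Col4a1 and Etv5, where 6.73% of all rows passed in at least 1 of these comparisons. Of the 623 in-register rows tested, 17 passed at 24h against 0h, 75 at 7d against 0h and 30 at 7d against 24h, larger shares than over all rows. Next to Irs2 lie Col4a1 and Col4a2. Col4a1 fell to 2293 ± 335 CPM at 7d, against 3541 ± 379 CPM at 24h (SD, n = 6 each), a log2 difference of -0.63 ± 0.10 (edgeR adjusted p = 0.0246). At 7d against 0h, where Irs2 fell, Col4a1 stood at -0.43 ± 0.13 and Col4a2 at -0.24 ± 0.13, neither past the threshold. Rab20, a small GTPase beyond Col4a2, had 3.29 ± 1.39 CPM at 24h and 3.74 ± 1.28 CPM at 7d (SD, n = 6 each), against 0.97 ± 0.27 CPM at 0h (n = 3). Its log2 differences of 1.76 ± 0.52 and 1.91 ± 0.53 against 0h were opposite in sign to those of Irs2 and did not pass (edgeR adjusted p = 0.199 and 0.0771). On the other side of Irs2 Abhd13 stood at 0.06 ± 0.20 at 7d against 0h, and Tnfsf13b and Myo16 had under 1 CPM.

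Arhgef18, a guanine nucleotide exchange factor near Insr, stood at -0.06 ± 0.07 at 7d against 24h. Senp2, a SUMO protease before Igf2bp2, and Tra2b, a splicing factor after it, did not pass in any comparison of times. Etv5, an ETS factor beyond Tra2b, fell to 30.3 ± 4.88 CPM at 7d (SD, n = 6), against 91.5 ± 5.79 CPM at 0h (n = 3; -1.59 ± 0.16, edgeR adjusted p = 0.00143).

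Among 528 in-register genes with a mean of 20 CPM or more, those most like each member over the 15 libraries were named by the Pearson correlation of log2 CPM. For Insr these were Suv420h1, a histone methyltransferase (0.92), Abat, the enzyme that breaks down GABA (0.91), Tmem39a (0.89), Tmco3 (0.89) and Btla, an inhibitory receptor of lymphocytes (0.86). Abat had 45.6 ± 6.40 CPM at 7d, against 9.94 ± 3.38 CPM at 24h (SD, n = 6 each), a log2 difference of 2.21 ± 0.25 (edgeR adjusted p = 0.00562) where Insr had 0.43. Btla (2.51 ± 0.48, adjusted p = 0.0403) and Tmem39a (0.73 ± 0.13, adjusted p = 0.0352) rose in that comparison too, while Suv420h1 (0.31 ± 0.10, adjusted p = 0.147) and Tmco3 (0.68 ± 0.17, adjusted p = 0.0773) did not pass in edgeR. For Irs2 they were Nrip1, a nuclear receptor corepressor (0.91), Snai2, a zinc finger repressor (0.89), Champ1 (0.87), Adamts5, an aggrecanase (0.85), and Efemp2, an elastic fibre protein (0.84).

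Adamts5 fell to 79.9 ± 7.93 CPM at 7d, against 205 ± 19.6 CPM at 0h (-1.36 ± 0.13, edgeR adjusted p = 0.00121), and Efemp2 fell as well (-0.84 ± 0.11, adjusted p = 0.00470). Nrip1 (-0.40 ± 0.17), Snai2 (-0.79 ± 0.28) and Champ1 (-0.22 ± 0.12) did not pass at 7d against 0h. For Igf2bp2 the most alike were Klc2, a kinesin light chain (0.84), Rab18, a small GTPase (0.82), Poglut1, a glycosyltransferase of Notch (0.77), Znhit2 (0.77) and Hspa13 (0.75), none past the threshold in a comparison of times. The 15 libraries share times, constructs and the pairs above.

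Of 132 other genes listed for the insulin pathway and its surroundings, 15 were in register and 14 could be tested. At 24h against 0h 3 were higher and 1 lower, at 7d against 0h 4 were higher and 1 lower, and at 7d against 24h 0 were higher and 1 lower. Of all rows, 1.47% were higher and 0.387% lower at 24h against 0h, 3.27% and 2.49% at 7d against 0h, and 1.15% and 1.18% at 7d against 24h. Of the 623 in-register rows tested, 10 were higher and 7 lower, 34 and 41, and 16 and 14 in the same order. The median log2 difference of the 14 genes was 0.13, 0.14 and -0.01, against 0.06, 0.07 and -0.02 over all rows. Between the hairpins and shScramble over all times edgeR called 0 of 14, with a median of 0.02 against 0.002 over all rows. The lists were chosen with earlier results of these data known, so these counts only describe the listed genes.

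Regulators that act on the receptor and its substrates were among those that rose. Cblb, a ubiquitin ligase of receptor signalling, rose to 173 ± 10.2 CPM at 24h (SD, n = 6), against 90.1 ± 15.3 CPM at 0h (n = 3; 0.95 ± 0.11, edgeR adjusted p = 0.00423), and to 197 ± 19 CPM at 7d (1.14 ± 0.11, adjusted p = 0.00121). Socs1, a suppressor of cytokine signalling known to promote degradation of insulin receptor substrates, rose to 42.6 ± 2.86 CPM at 7d, against 26.1 ± 4.18 CPM at 0h (0.72 ± 0.14, adjusted p = 0.0262). At 24h it stood at 0.27 ± 0.14. The adaptor Crkl stood at -0.17 ± 0.10 at 7d against 0h.

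In the kinase arms below the receptor, none of Rps6kb2, Gsk3b, Ppp1r2, Pak2 and Map2k7 passed in any comparison of times. At 7d against 0h Gsk3b, the kinase that AKT inhibits, stood at -0.16 ± 0.14 and Map2k7, a kinase of JNK, at 0.36 ± 0.13. Etv5, known as a target of the RAS and MAP kinase arm, fell at 24h (-0.89 ± 0.16, edgeR adjusted p = 0.0356) and at 7d (-1.59, above). Elavl1, an RNA-binding protein listed with Igf2bp2, stood at -0.11 ± 0.07 at 7d.

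Among genes known to be induced by FOXO factors or glucocorticoids, Cebpd rose to 172 ± 19.7 CPM at 24h (SD, n = 6), against 66.8 ± 6.07 CPM at 0h (n = 3; 1.36 ± 0.14, edgeR adjusted p = 0.00306), and stood at 170 ± 30.1 CPM at 7d. Adcy9, an adenylate cyclase, rose to 72.3 ± 17 CPM at 24h and 111 ± 9.64 CPM at 7d, against 39.5 ± 13.1 CPM at 0h (0.92 ± 0.18 and 1.54 ± 0.18, adjusted p = 0.0461 and 0.00297). Bcl6, a FOXO target, stood at -0.71 ± 0.20 at 24h and -0.61 ± 0.20 at 7d, neither past the threshold. Irs2 and Insr belong to the same list and stood at -1.64 and 0.43 at 7d against 0h.

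**Figure D5:**
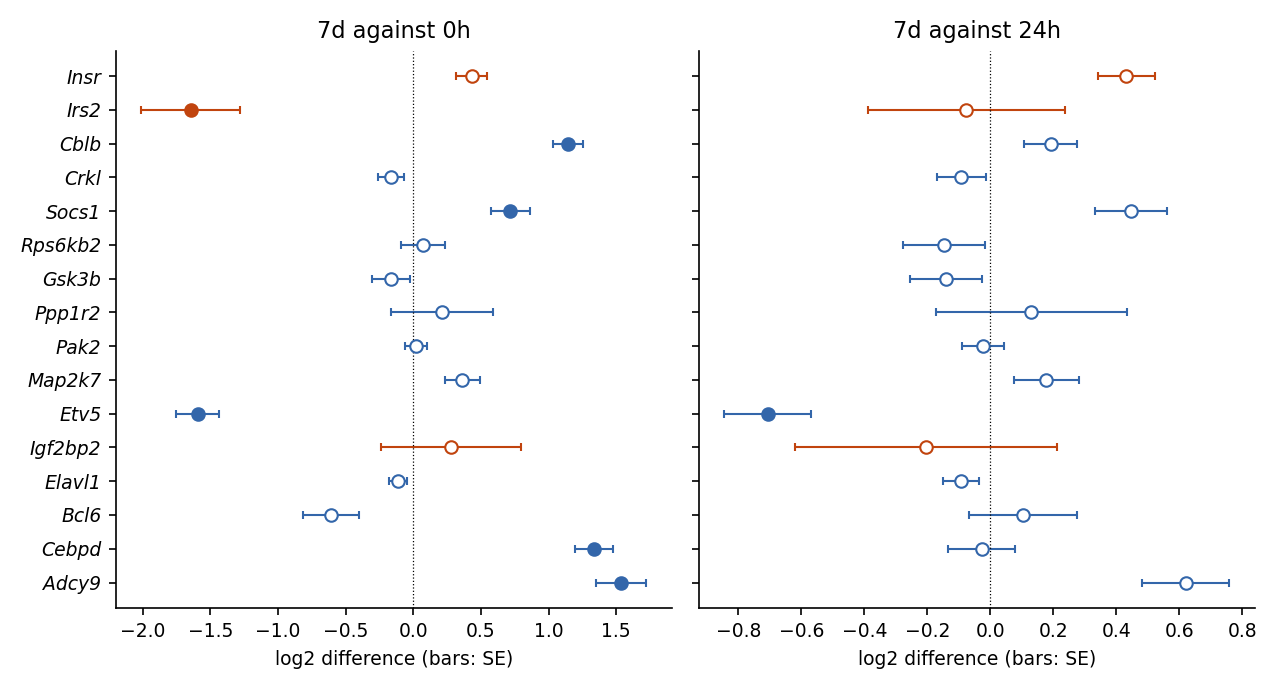
Log2 differences (points) with SE (bars) of the 3 members (red) and 13 of the 14 other pathway genes tested (blue), at 7d against 0h on the left and 7d against 24h on the right; filled points are past the edgeR threshold. At 7d against 0h Irs2 (-1.64) and Etv5 (-1.59) are the filled points on the lower side, and Cblb, Socs1, Cebpd and Adcy9 those on the higher side.

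Markers of other cell types were checked where they were in register. The adipocyte hormones Adipoq and Retn summed to at most 0.74 CPM in any library at any time. Cldn5, an endothelial claudin, was at 0 in every library. Actn3, an actin cross-linker of fast muscle, had 1.73 to 8.69 CPM at 0h, 52.6 to 101 CPM at 24h and 103 to 143 CPM at 7d. Its ranges did not overlap between any of these times, while Insr overlapped between 0h and 24h and Irs2 between 24h and 7d. The part of Actn3 in the values of Irs2 and Insr was not tested.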

How the data were processed

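RNA-seq of 18 libraries gave 1 table of whole-number read counts per gene, which the authors deposited. Per the submitters' processing notes, FastQC, TopHat2 2.0.9 and the build mm9 were used, along with DESeq and DESeq2. The counting program, strand setting and gene models were not given in the sources used here, so reads of overlapping genes cannot be told apart. Identifiers (97.4% of 40620) were found in GENCODE vM21 on GRCm38, which gave gene order and exon lengths. Because the builds differ, coordinates are printed for RefSeq windows only.

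EdgeR 4.0.16 in R 4.3.3 was run on the deposited counts of all rows in 15 libraries: filterByExpr over the 9 groups, TMM, robust dispersions and the quasi-likelihood test with 9 group means, which left 12930 rows and 6 residual degrees of freedom. Each 0h group had 1 library, assumed to vary like the others. Adjustment was Benjamini-Hochberg with a threshold of 0.05. Comparisons of times average over the 3 constructs. Standard errors are the log2 fold change over the square root of F. DESeq2 1.42.0, other scalings and filters, all 18 libraries, in-register rows, sample blocks and leaving out each library were alternatives.

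The register search scored protein-coding genes as detected at 20 CPM, with a chance of 0.6 in register and 0.4 outside it, or 0.9 and 0.25 for commonly expressed genes. It kept stretches of at least 10 genes and a log likelihood ratio of 3, less 3 genes at the far end. Its settings were picked once the data had been seen. They left 929 of 21129 protein-coding rows, with 20 of 21 members of the families held out at 20 CPM or more, against 74 of 401 elsewhere. Besides the members, the genes named are pathway list members tested, the 3 neighbours on each side and the 5 most alike genes of each member, in register only. Other rows are named only to show the register, and 1 pathway gene tested is not reported here. Levels for the correlations are log2(CPM + 0.5).

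The members and lists were chosen with earlier results of these data known. In each of the 3 constructs, deviations of same-numbered samples at 24h and 7d correlated, at 0.45 to 0.50, so the number pairs those libraries, while across constructs it gave -0.20 to 0.56. The pairing comes from the values, as the labels state none.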

Additional observations from a re-analysis of the deposited data

Results flagged for a closer look

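Sample 1 of each construct at 0h was left out of every comparison except those in the fit with all 18 libraries. In these 3 libraries, 2 of the 3 genes stood higher than in the libraries used. Scaled to the library total, Insr had 299.74 to 374 CPM in these 3 libraries, against 167 to 195 CPM in sample 2 at 0h. Igf2bp2 had 72.5 to 98.3 CPM, against 17.6 to 44.6 CPM. Irs2 overlapped, at 88.6 to 180 CPM against 88.6 to 171 CPM.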

How the results depend on the processing

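Of the 9 differences between times, the 3 of Irs2 and those of Insr and Igf2bp2 at 7d against 24h kept their direction under the 9 other settings. Irs2 at 24h against 0h passed with all 18 libraries (-1.55), DESeq2 (-1.58), in-register rows (-1.56) and a replicate block shared by constructs (-1.23), and at 7d against 0h it did not pass without a filter on counts (-1.64). Insr at 7d against 24h passed with RLE factors (0.44), a mean of 5 CPM or more (0.45), DESeq2 (0.44), in-register rows (0.42) and the shared block (0.43). At 7d against 0h Insr passed with a mean of 5 CPM or more (0.44), DESeq2 (0.43) and in-register rows (0.43), and was -0.14 with all 18 libraries. At 24h against 0h it was 0.014 with library size only, 0.0045 with no filter and 0.0075 with in-register rows. Igf2bp2 turned negative at 24h and 7d against 0h with all 18 libraries (-0.80 and -0.98), the replicate block (-0.17 and -0.31) and the shared block (-0.14 and -0.30).

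With the replicate block by construct, which pairs 24h with 7d, Insr stood at 0.43 at 7d against 24h, and no call of the members between times changed. That block lies within the constructs, so it gives no value for a difference between constructs, and the planned fits of those differences with it are not given. Insr with shRcor2-18 over all times, at 0.00009, was -0.0081 with all 18 libraries, -0.0093 with RLE factors, -0.036 with library size only, -0.021 with no filter, -0.0094 with DESeq2 and -0.0021 with the shared block.

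Leaving out 1 library gave -1.81 to -1.41 for Irs2 at 24h, -1.89 to -1.48 at 7d against 0h and -0.32 to 0.16 at 7d against 24h. It gave -0.084 to 0.11, 0.30 to 0.55 and 0.38 to 0.50 for Insr in the same comparisons, and 0.097 to 0.77, -0.040 to 0.60 and -0.53 to 0.19 for Igf2bp2. For the hairpins it gave -0.14 to 0.033 (Insr) and -0.14 to 0.81 (Irs2) at 24h, -0.76 to 0.043 for Igf2bp2 at 7d and -0.11 to 0.022 for Insr over all times. The hairpin difference kept its sign at -0.98 to -0.078 for Igf2bp2 at 24h and at 0.19 to 0.79 for Irs2 at 7d. The rows called at 24h against 0h were 240, 582 with DESeq2, 35 of 622 in-register rows, 56 with the replicate block and 126 to 231 without 1 library. At 7d against 0h they were 745, 1427, 170, 432 and 310 to 762, and at 7d against 24h 302, 1100, 110, 169 and 120 to 307, with 38 when all 18 libraries were used. The causes were not tested. With in-register rows fewer rows entered the adjustment, and scaling and spread were fitted anew. The 3 libraries at 0h limit every comparison with that time.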
